A study of Mus musculus with 10 samples.

Results

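Chromatin genes whose human counterparts are tumor suppressors in renal cancer, or subunits of the same complexes, were followed through the RNA-seq of KM and KMS mouse kidneys. They are Pbrm1, Bap1, Arid1a, Arid1b, Arid2, Smarca4, Smarca2, Smarcb1, Smarcc1 and Asxl1, chosen by name, and they make up 10 of the 21010 genes in the count table. All 10 passed the filter on low counts, with a gene and library holding between 54 and 2688 reads. The 5 KM mice are labelled with the genotype Ksp1.3/cre; MYCfl/fl and the 5 KMS mice with Ksp1.3/cre; MYCfl/fl;Setd2fl/fl. The methods instead write both groups as heterozygous for the MYC allele. All are C57BL/6 mice aged 20 weeks, with 1 library per mouse. Both groups therefore share the MYC allele, which the methods describe as an overexpressing Rosa26 allele, and a Cre recombinase under the Ksp (Cdh16) promoter, which acts in tubular epithelium and not in the other cells of the kidney. KMS differs by the floxed Setd2 alleles, which encode the methyltransferase of H3K36me3. The sample labels call the material primary tubular epithelial cells, the methods call it kidney tissue, and the Reporting Summary speaks of cysts in KM and neoplastic masses in KMS. The comparison of KMS with KM asks what the loss of Setd2 adds in a MYC-driven polycystic kidney.

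The SWI/SNF complexes move nucleosomes with the energy of ATP, which opens or closes stretches of DNA to other proteins. Each complex has a single ATPase, SMARCA4 (BRG1) or its paralog SMARCA2 (BRM), and a core that includes SMARCB1 and SMARCC1. The BAF form is defined by ARID1A or ARID1B, and the PBAF form by PBRM1 and ARID2. BAP1 is a deubiquitinase that removes ubiquitin from histone H2A and needs ASXL1 or a relative of it to be active, so it opposes Polycomb repressive complex 1, which adds that mark. In human clear cell renal carcinoma PBRM1, BAP1 and SETD2 lie close together on the short arm of one chromosome and are lost together with VHL. In the mouse Pbrm1 and Bap1 are neighbors as well, whereas Setd2 is on chromosome 9.

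In GRCm38 Pbrm1 occupied chromosome 14 from 31019138 to 31121592 and Bap1 chromosome 14 from 31251352 to 31259930, 129.76 kb apart and on the same strand. The start of each lay next to the end of the annotated span of a gene read in the other direction, Gnl3 at 7 bases from Pbrm1 and Phf7 at 8 bases from Bap1. The promoter sequences of these 2 genes are shown because they are the renal tumor suppressors whose fitted changes were the most negative and the most positive of the 10. They come from RefSeq (GRCm38.p6) and run on the plus strand from 250 bases before to 50 bases after the annotated transcript start, with the motif CACGTG in capitals. CACGTG is the canonical E-box, which MYC binds together with MAX and which other basic helix-loop-helix factors bind as well.
Pbrm1 (chr14:31018888-31019187): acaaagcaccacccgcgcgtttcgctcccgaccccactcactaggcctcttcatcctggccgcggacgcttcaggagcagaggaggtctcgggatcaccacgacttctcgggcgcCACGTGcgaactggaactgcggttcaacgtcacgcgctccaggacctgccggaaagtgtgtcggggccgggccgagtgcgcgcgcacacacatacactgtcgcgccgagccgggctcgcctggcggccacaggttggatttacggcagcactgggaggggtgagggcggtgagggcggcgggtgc
Bap1 (chr14:31251239-31251538): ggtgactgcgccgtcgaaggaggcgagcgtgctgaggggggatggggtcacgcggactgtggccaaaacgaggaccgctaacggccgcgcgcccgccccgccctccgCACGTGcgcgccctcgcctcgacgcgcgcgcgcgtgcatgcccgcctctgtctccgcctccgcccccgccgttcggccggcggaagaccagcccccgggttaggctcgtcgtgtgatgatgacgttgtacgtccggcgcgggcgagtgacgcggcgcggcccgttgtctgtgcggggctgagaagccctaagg

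Both windows held the motif once, beginning 135 bases before the transcript start of the window in Pbrm1 and 143 bases before it in Bap1. For Pbrm1 that start is the first base of the span given above. For Bap1 it lies inside the span, downstream of 31251352, so the 143 bases do not count from the start next to Phf7. The motif reads the same on both strands, and no other motif was searched. Promoters were given for 9 of the 10 genes, with 2 for Arid1a, and the windows of the other 7 matched genes held none. The motif was present in 7.15% of all 32851 promoters given, and in 11.5% of the 10722 tested genes with a promoter. A match describes the letters of a window and does not show that a factor is bound there. The 2 windows were rich in CpG, with 35 CpG in Pbrm1 and 50 in Bap1 against a median of 7 over all promoters. The windows of the other 7 matched genes were above that median as well, from 13 CpG in Asxl1 to 42 in Arid1b.

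Total counts were 10873993 to 14564152 per library in KM and 16925118 to 25029639 in KMS, so each KMS library was deeper than each KM library. Setd2, counted over the whole gene, was at 62.6 to 73.3 CPM (counts relative to the library total after scaling by TMM factors) in the KM libraries and at 28.2 to 89.0 CPM in the KMS libraries (log2 fold change -0.25, adjusted p = 0.658, edgeR quasi-likelihood), a count that does not show whether a floxed exon is missing. KMS replicate 5 stood apart: genes in the shortest tertile by exon length (below 2.37 kb) lay a median 0.91 log2 units above the mean of the other KMS libraries and genes in the longest tertile (above 4.23 kb) 0.70 log2 units below it. The difference of 1.61 log2 units between these tertiles compares with -0.66 to 0.34 in the other 9 libraries. KM replicates 1 and 2 were unusually alike, with a chi-square of 4.67 per gene between their counts against at least 38.5 in every other pair within a group and a Spearman correlation of 0.993. They differed by more than sampling noise, which does not show that they come from separate mice. They were counted as separate mice because they are labelled so. The Y-linked genes summed to between 0 and 461 CPM in KM and between 0 and 126 CPM in KMS, and no label gives a mouse's sex. Marker genes of proximal tubule were present in every library, at a sum of 5721 to 17552 CPM in KM and 2494 to 21656 CPM in KMS. Podocyte markers, which tubular cells should lack, summed to 137 to 1283 CPM in KM and 197 to 1771 CPM in KMS, so the libraries held RNA of more than tubular epithelium. In bulk RNA, fewer cells of a type and less RNA per cell cannot be told apart.

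By edgeR's quasi-likelihood test, none of the 10 genes was called different between the genotypes at an FDR under 0.05 with a change of more than 1.5-fold in either direction. Among all 15728 tested genes 16 were called (0.102%). At an unadjusted p under 0.05, 1 of the 10 genes passed, Bap1, against 19.5% of all tested genes. The fitted log2 fold change was below 0 for 9 genes and above 0 for Bap1 alone, against 46% of all tested genes below 0, and the median was -0.15 against 0.06 over all tested genes. The libraries of KM and KMS overlapped for all 10 genes, whereas 4.79% of tested genes had groups that did not overlap. The count of 9 did not hold with exon length taken into account, where 2 of the 10 were below 0, and 5 were below 0 without KMS replicate 4.

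**Figure D1:**
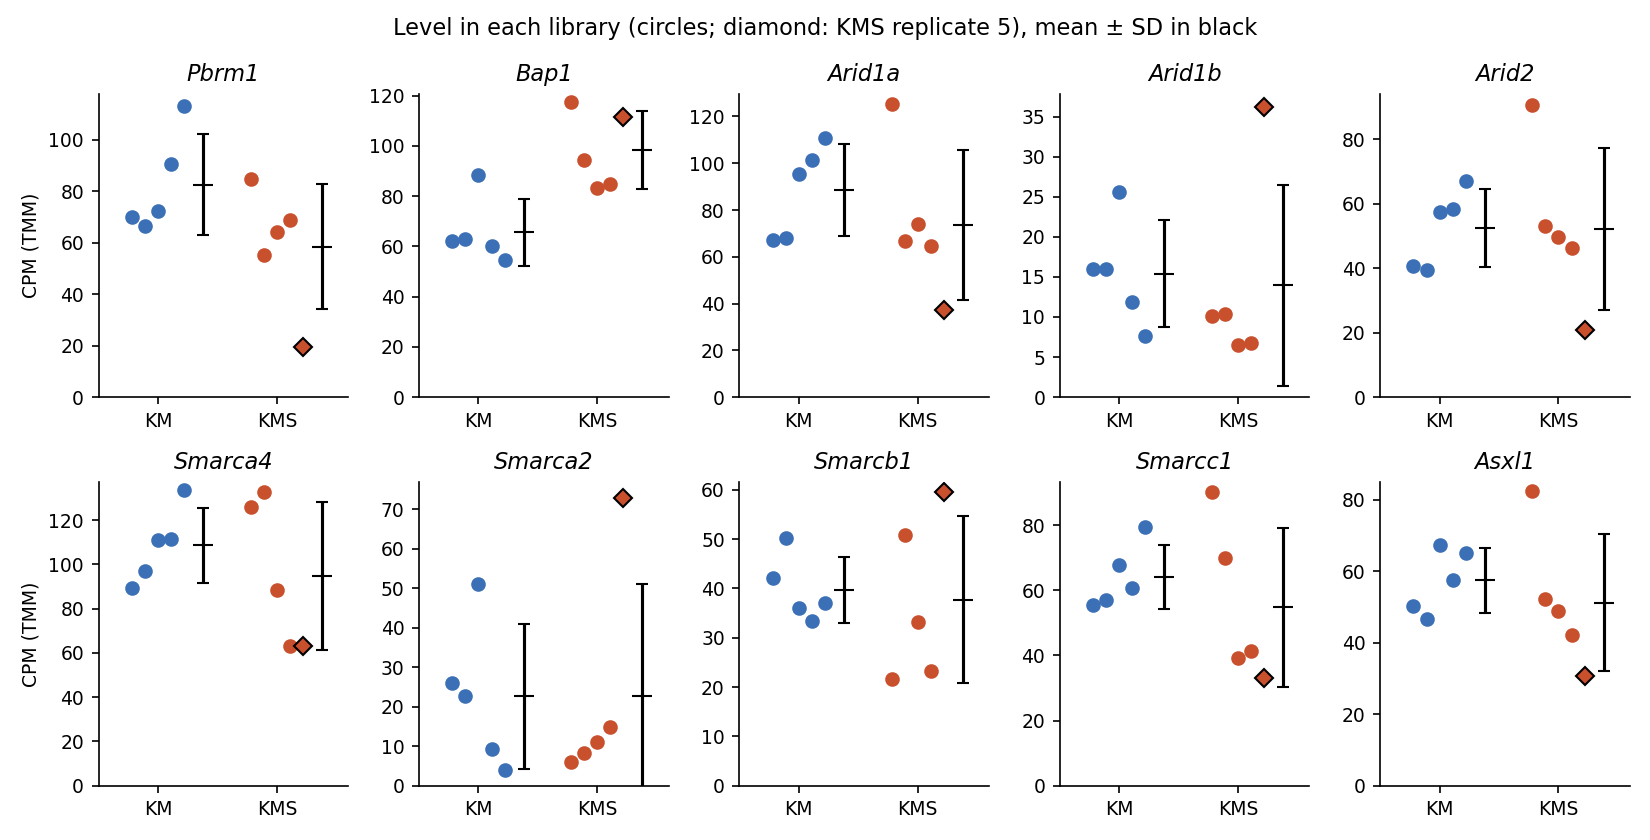
Level of each of the 10 genes in CPM (vertical axes from 0, a scale for each gene) in the 5 KM (blue) and 5 KMS (red) libraries, with the mean ± SD in black and KMS replicate 5 as a diamond. Bap1 was at 83.1 to 118 CPM in KMS and at 54.4 to 88.6 CPM in KM, and KMS replicate 5 was the highest KMS library for Smarca2, Arid1b and Smarcb1.

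Bap1 encodes the catalytic subunit of the deubiquitinase complex and is mutated in a distinct group of human clear cell carcinomas. Bap1 was at 62.3, 62.9, 88.6, 60.0 and 54.4 CPM in KM replicates 1 to 5, and at 117.6, 94.4, 83.1, 84.9 and 111.5 CPM in KMS replicates 1 to 5. The groups overlapped only through KM replicate 3, which lay above KMS replicates 3 and 4. Mean levels were 65.6 ± 13.3 CPM (SD, n = 5) for KM mice and 98.3 ± 15.6 CPM (SD, n = 5) for KMS mice. The fitted fold was 1.498 (log2 fold change 0.58, standard error 0.195, 95% interval 0.16 to 1.01), with an unadjusted p of 0.0115 and an adjusted p of 0.183 from edgeR's quasi-likelihood test over all tested genes. The difference was thus larger than the spread within the groups for the single gene but did not pass adjustment over the genes tested. Without KM replicate 1 or 2, the pair most alike, the log2 fold change was 0.57 in each case (adjusted p = 0.315 and 0.308, edgeR). It was positive in all 25 fits that were run, from 0.43 to 0.72, with adjusted p-values from 0.0287 to 0.499. Bap1 was called in 1 of the 25, the fit with a factor of unwanted variation estimated from residuals (RUVr), which also called 15% of all tested genes. The KMS spread was narrow, with a coefficient of variation of 15.8%, the lowest of the 10 genes in KMS, and KMS replicate 5 was at 1.17 times the mean of the other KMS libraries.

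ASXL1 is the cofactor that activates BAP1 and is itself mutated in blood cancers. Asxl1 was at 50.4, 46.6, 67.4, 57.7 and 65.1 CPM in KM and at 82.4, 52.2, 48.8, 42.0 and 30.7 CPM in KMS. KMS held both the highest and the lowest library, and KM lay between them. The log2 fold change of Asxl1 was -0.17 (95% interval -0.72 to 0.39, adjusted p = 0.757, edgeR), so the interval does not show a change in either direction. Among the 10 other genes of BAP1 complexes, which include Asxl2, Asxl3 and the glucose-sensing transferase Ogt, the edgeR quasi-likelihood test called none. The fit with RUVr called 1, Ogt, as lower, against 15% of all tested genes. By edgeR none had an unadjusted p under 0.05 (19.5% of all tested genes). A log2 fold change below 0 was found for 7 (median -0.13), against 46% of all tested genes. The lowest p-values belonged to the ASXL paralogs. Asxl2 was at 6.45 ± 1.86 CPM in KM against 3.83 ± 2.28 CPM in KMS (log2 fold change -0.75, adjusted p = 0.332, edgeR), and Asxl3, at 3.62 ± 0.995 and 2.08 ± 1.34 CPM, had a log2 fold change of -0.79. In KMS replicate 5 Asxl2 was at 7.73 CPM, within the KM range of 3.48 to 8.41 CPM, and the other 4 KMS libraries were at 2.19 to 4.01 CPM.

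Pbrm1 encodes polybromo, the bromodomain subunit of PBAF and, after VHL, the gene mutated most often in human clear cell carcinoma. Pbrm1 was at 69.9, 66.6, 72.2, 90.7 and 113.2 CPM in KM replicates 1 to 5, and at 84.6, 55.2, 64.2, 68.9 and 19.3 CPM in KMS replicates 1 to 5. Apart from KMS replicate 5, at 0.283 times the mean of the other KMS libraries, the KMS values lay within or just below the KM range. The log2 fold change was -0.50 (standard error 0.333, 95% interval -1.23 to 0.23, adjusted p = 0.427, edgeR) and -0.23 without KMS replicate 5 (95% interval -0.68 to 0.21). It was below 0 in all 25 fits, from -0.66 to -0.18, and was called only with the RUVr factor (adjusted p = 0.0106). Arid2, whose product joins PBRM1 in PBAF, was at 40.6, 39.3, 57.3, 58.2 and 67.0 CPM in KM and at 90.7, 53.1, 49.7, 46.4 and 20.9 CPM in KMS. KMS replicate 1 was the highest and KMS replicate 5 the lowest of all 10 libraries, and the log2 fold change of Arid2 was -0.01 (95% interval -0.73 to 0.71, adjusted p = 0.992, edgeR). Without KMS replicate 5 it was 0.23 (95% interval -0.31 to 0.77), and leaving out KM replicate 3, 4 or 5 or KMS replicate 3 or 4 turned it above 0 as well, so the data give Arid2 no direction. Pbrm1 overlaps Smim4, another gene of the table, and their reads could not be separated where they overlap unless the counting used strand, a setting not given in the sources used here.

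ARID1A, the DNA-binding subunit that defines most BAF complexes, is a frequent target of mutation in carcinomas. Arid1a was at 67.4, 68.1, 95.2, 101.4 and 110.9 CPM in KM and at 125.4, 66.9, 74.0, 64.6 and 37.2 CPM in KMS. KMS replicate 1 was above every KM library, and KMS replicates 2, 4 and 5 were below every one of them. The log2 fold change of Arid1a was -0.27 (95% interval -0.92 to 0.38, adjusted p = 0.653, edgeR). Its paralog Arid1b, which takes its place in the complex, was at 15.9, 16.0, 25.6, 11.9 and 7.62 CPM in KM and at 10.1, 10.4, 6.498, 6.71 and 36.1 CPM in KMS. KMS replicate 5 was the highest of all libraries, at 4.29 times the mean of the other 4 KMS libraries, which were all below KM replicates 1 to 4. The log2 fold change of Arid1b was -0.14 (95% interval -1.24 to 0.95, adjusted p = 0.906, edgeR), and without KMS replicate 5 it was -0.86 (95% interval -1.63 to -0.09, unadjusted p = 0.0323, adjusted p = 0.248). A transcript of Gm8134, which is not among the genes counted here, matches 1134 bases of Arid1a at 91.6% identity, so the alignment of some reads of Arid1a may be uncertain.

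SMARCA4 is the ATPase found in most SWI/SNF complexes of growing cells. Smarca4 was at 89.5, 97.2, 111.1, 111.3 and 133.6 CPM in KM and at 125.7, 132.8, 88.3, 63.1 and 63.1 CPM in KMS. KMS replicates 3, 4 and 5 lay below every KM library and KMS replicates 1 and 2 near the top of the KM range, and the log2 fold change of -0.20 was within the spread (95% interval -0.75 to 0.36, adjusted p = 0.701, edgeR). SMARCA2, the alternative ATPase, is often silenced rather than mutated in tumors. Smarca2 was at 26.1, 22.8, 51.2, 9.35 and 3.92 CPM in KM and at 6.08, 8.25, 10.99, 14.95 and 73.0 CPM in KMS. It was the most variable of the 10 genes, with a 13.1-fold range within KM and a 12.01-fold range within KMS. The means of 22.7 ± 18.4 CPM in KM and 22.7 ± 28.4 CPM in KMS were alike only because of KMS replicate 5, at 7.25 times the mean of the other KMS libraries. The log2 fold change of Smarca2 was -0.00 (95% interval -1.68 to 1.67, adjusted p = 0.999, edgeR) and -1.17 without KMS replicate 5 (95% interval -2.52 to 0.18, adjusted p = 0.354). An interval that spans more than 3 log2 units leaves the comparison without information on this gene. Smarca2 overlaps the noncoding gene 4931403E22Rik of the table.

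SMARCB1 is the core subunit lost in rhabdoid tumors and in renal medullary carcinoma. Smarcb1 was at 42.0, 50.3, 36.1, 33.4 and 37.0 CPM in KM and at 21.7, 50.9, 33.1, 23.3 and 59.6 CPM in KMS. KMS replicates 1, 3 and 4 were below the KM range, KMS replicates 2 and 5 were above it, and the log2 fold change was -0.08 (95% interval -0.72 to 0.57, adjusted p = 0.916, edgeR). SMARCC1 is the scaffold around which the core assembles. Smarcc1 was at 55.3, 57.0, 67.8, 60.7 and 79.4 CPM in KM and at 90.2, 69.8, 39.2, 41.3 and 33.0 CPM in KMS. KMS replicates 3, 4 and 5 were below every KM library and KMS replicate 1 above every one, and the log2 fold change was -0.23 (95% interval -0.84 to 0.39, adjusted p = 0.691, edgeR). A transcript of Gm7004, not among the genes counted here, matches 1008 bases of Smarcc1 at 95.2% identity.

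**Figure D2:**
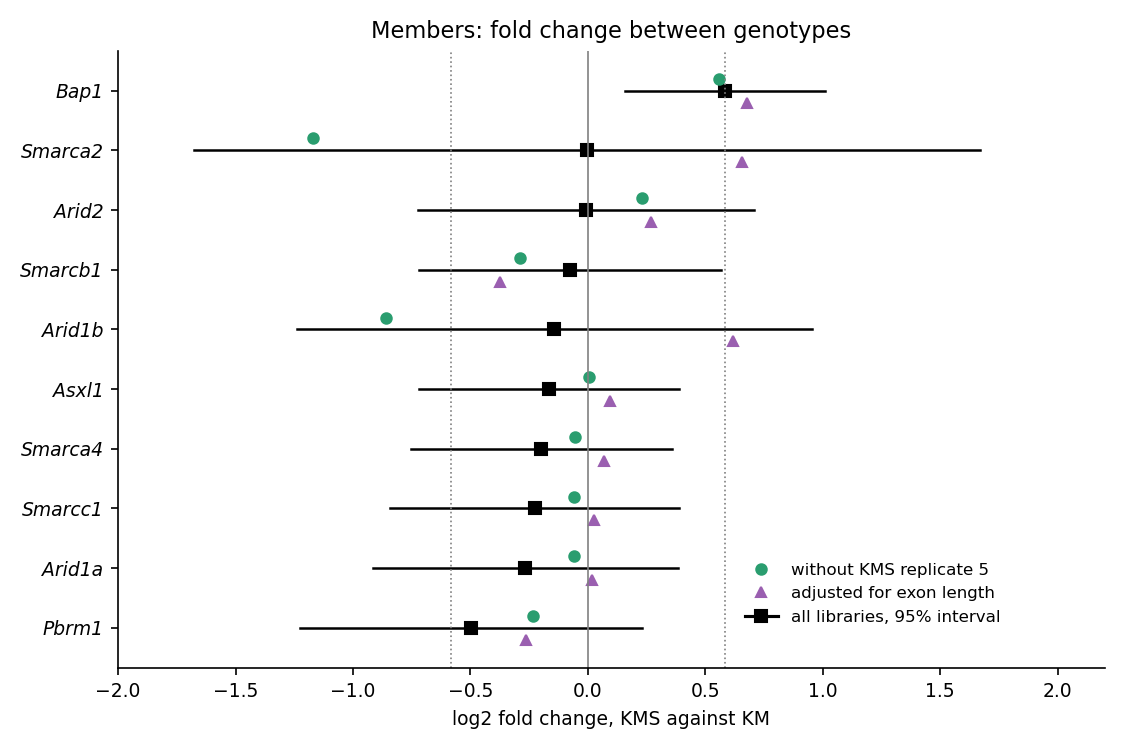
Log2 fold change of KMS against KM for the 10 genes (horizontal axis) with all libraries (squares, with the 95% interval of the edgeR fit), without KMS replicate 5 (circles) and adjusted for exon length (triangles); dotted lines mark a change of 1.5-fold either way. The interval of Bap1, from 0.16 to 1.01, was the only one of the 10 that did not reach 0, and Smarca2 moved from -0.00 to -1.17 without KMS replicate 5.

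Per kilobase of exon, the order of levels in KM was led by Smarcb1 (23.9 ± 4.02 CPM per kb), Bap1 (19.0 ± 3.83) and Smarca4 (17.0 ± 2.64), whose ranges overlapped from one to the next. A gap followed: each KM library held more Smarca4 per kb (at least 14.04) than any held Arid1a (at most 12.9), which was at 10.3 ± 2.32 CPM per kb. Arid1a, Pbrm1 (10.2 ± 2.41), Smarcc1 (9.88 ± 1.51) and Asxl1 (8.23 ± 1.29) formed a group with overlapping ranges, and Asxl1 overlapped with Arid2 (5.98 ± 1.38) in turn. The lowest were Smarca2 (3.11 ± 2.52) and Arid1b (1.34 ± 0.581), also with overlapping ranges. In KMS the same 3 genes led, with Bap1 first at 28.4 ± 4.50 CPM per kb, and the same 2 came last, and the ranges of every pair of neighbors in the order overlapped.

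KMS replicate 5 deviated from the other KMS libraries in a different direction for short and for long genes of the set. Smarcb1, at 1.66 kb in the shortest tertile, lay 0.97 log2 units above the mean of the other KMS libraries, and Bap1, at 3.46 kb in the middle tertile, 0.25 above it. The other 8 genes belong to the longest tertile. Pbrm1, Arid2, Arid1a, Asxl1, Smarcc1 and Smarca4 lay 0.64 to 1.79 log2 units below, on the side of the long genes as a whole (median -0.70). Smarca2 and Arid1b, of 7.30 and 11.5 kb, went the other way, 2.91 and 2.11 log2 units above, against the direction of the long genes as a whole. Adjusted for exon length, the log2 fold change of Bap1 was 0.68 (adjusted p = 0.143, edgeR) and that of Pbrm1 -0.26, and 8 of the 10 genes were above 0, at a median of 0.08 against 0.09 over all tested genes.

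**Figure D3:**
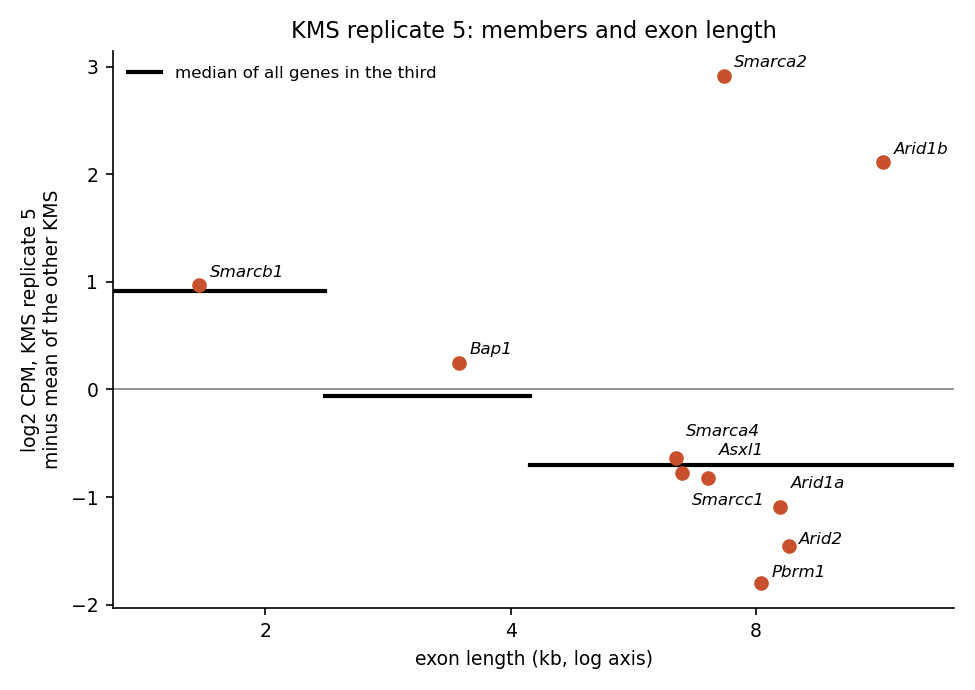
Difference in log2 CPM between KMS replicate 5 and the mean of the other 4 KMS libraries for the 10 genes (vertical axis) against exon length (kb, log axis), with bars at the median of all genes in each tertile of exon length. Smarcb1 and Bap1 lay near or above the bars of their tertiles, 6 long genes lay below 0, and Smarca2 (2.91) and Arid1b (2.11) stood far above the bar of the longest tertile (-0.70).

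The 6 genes Pbrm1, Arid1a, Arid2, Smarca4, Smarcc1 and Asxl1, grouped after their values had been seen, varied together over the 10 libraries. Pearson's r of log2 CPM was 0.63 to 0.96 in their 15 pairs and 0.57 to 0.98 after the group means were removed, and within KMS replicate 1 was at or near the top and replicate 5 at or near the bottom. All 6 are long genes and the libraries share one scaling, so these values describe the libraries and carry no test. Smarca2 and Arid1b rose and fell together (r = 0.84) and ran against Arid2 and Arid1a, at r of -0.76 for Smarca2 with Arid2 and -0.67 for Smarca2 with Arid1a. Bap1 had r from -0.57 with Pbrm1 to 0.27 with Smarca2 over all libraries, and after the group means were removed from -0.34 with Pbrm1 to 0.54 with Smarca2 and 0.74 with Arid1b. Among 13299 genes of sufficient level, the pattern of Pbrm1 was most like that of Bbx, Rabgap1l and Zfp644 (r = 0.99 each, 10 libraries). Their Spearman correlations with Pbrm1 were lower, at 0.89, 0.89 and 0.88. KMS replicate 5 was the lowest library for Pbrm1 and for each of these genes. The pattern of Bap1 was most like that of C130074G19Rik, Mtmr14 and Selo (r = 0.98, 0.98 and 0.97, with Spearman correlations of 0.95, 0.98 and 0.98). Mtmr14, which encodes a lipid phosphatase, was at 29.6 ± 6.46 CPM in KM against 49.3 ± 10.7 CPM in KMS. The groups overlapped and the difference was not called (adjusted p = 0.164, edgeR). Because Mtmr14 was picked for its likeness to Bap1 over all libraries, its higher mean in KMS is not a separate result.

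Related subunits were compared as a ratio within each library, which the scaling between libraries does not touch. Except for Arid2 and Arid1a, the pairs are paralogs that take the same place in a complex. The smallest two-sided p that an exact permutation test of 5 against 5 libraries allows is 0.00794, and p-values were adjusted over the 5 ratios. The log2 ratio of Arid2 to Arid1a, which sets a PBAF subunit beside a BAF subunit, was -0.72, -0.78, -0.73, -0.80 and -0.72 in KM and -0.47, -0.33, -0.57, -0.47 and -0.81 in KMS. The KM libraries were close together, 4 KMS libraries lay above all of them, and KMS replicate 5 lay below all of them. The means were -0.75 ± 0.036 in KM and -0.53 ± 0.180 in KMS, a difference of 0.22 (exact permutation p = 0.0476, adjusted p = 0.238). Without KMS replicate 5 the difference was 0.29 and passed adjustment (exact permutation p = 0.00794, adjusted p = 0.0397), so that library decided whether the ratio passed.

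The log2 ratio of Smarca2 to Smarca4 was -1.76, -2.07, -1.11, -3.50 and -4.92 in KM and -4.26, -3.93, -2.95, -2.04 and 0.21 in KMS. It thus spanned more than 3 log2 units in each group, and the difference of 0.08 between the means was within that spread (exact permutation p = 0.937, adjusted p = 1). Per kilobase, Smarca2 was at 0.0256 to 0.402 times the level of Smarca4 in 9 libraries and at 1.01 times in KMS replicate 5, the only library in which the alternative ATPase matched the main one. Arid1b to Arid1a behaved alike, with -0.04 in KMS replicate 5 and -3.78 to -1.88 in the other 9 libraries, and a difference of -0.01 (exact permutation p = 1). Smarcc2, the second scaffold, was at 2.05 to 4.50 times the level of Smarcc1 per kilobase, above it in all 10 libraries, and the log2 ratio was 0.99 ± 0.164 in KM and 1.36 ± 0.473 in KMS (exact permutation p = 0.127, adjusted p = 0.317). The log2 ratio of Asxl2 to Asxl1 was -3.10 ± 0.535 in KM and -3.63 ± 1.11 in KMS (exact permutation p = 0.333, adjusted p = 0.556), with 4 KM libraries between -2.93 and -2.73.

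**Figure D4:**
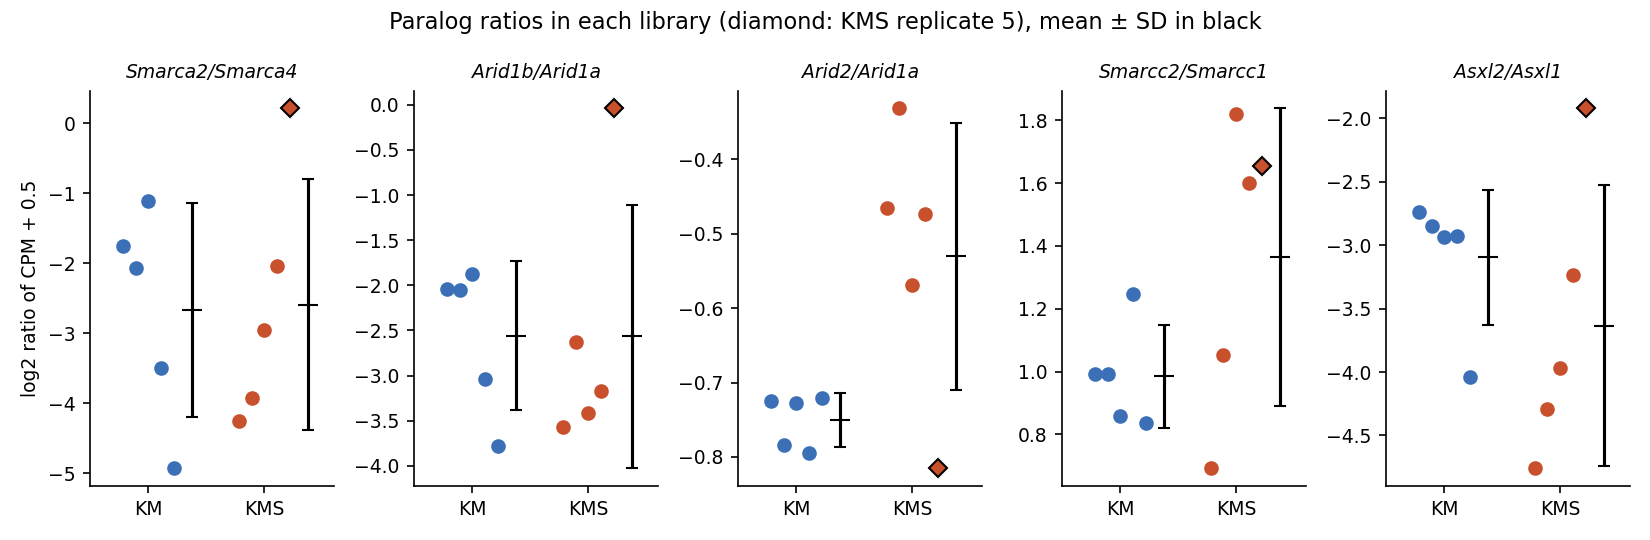
Log2 ratio (CPM + 0.5) of paralogs, and of a PBAF to a BAF subunit for Arid2 to Arid1a, in each KM (blue) and KMS (red) library. The mean ± SD is in black and KMS replicate 5 is a diamond, and the vertical scales differ. For Arid2 to Arid1a the KM libraries lay between -0.80 and -0.72 and 4 of the 5 KMS libraries between -0.57 and -0.33, while for Smarca2 to Smarca4 KMS replicate 5 stood alone at 0.21.

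Of the other SWI/SNF subunits, 20 of the 23 listed were tested. The edgeR quasi-likelihood test called none, 2 had an unadjusted p under 0.05 on the higher side (10.8% of all tested genes) and 1 on the lower (8.62%), and 13 of 20 had a log2 fold change above 0 (median 0.08, against 0.06 over all tested genes). The lowest p-values belonged to Bcl7c and Bcl7b, small accessory subunits. Bcl7c was at 12.6 to 21.0 CPM in KM, at 14.5 to 33.0 CPM in KMS replicates 1 to 4 and at 122 CPM in KMS replicate 5, and its log2 fold change of 1.37 (adjusted p = 0.210, edgeR) was 0.49 without that library. Bcl7b was at 18.3 to 28.0 CPM in KM against 27.0 to 68.8 CPM in KMS (log2 fold change 0.71, adjusted p = 0.220, edgeR), where the lowest KMS library lay within the KM range, and its log2 fold change was 0.40 without KMS replicate 5, the highest at 68.8 CPM against 27.0 to 34.5 CPM in the other KMS libraries. Bcl7c was called with 1 RUVg factor (adjusted p = 0.0496), with 2 (adjusted p = 0.0494) and with RUVr (adjusted p = 0.0035), and Bcl7b with RUVr (adjusted p = 0.0080). Of all 15728 tested genes, RUVg called 1000 and 1471 with 1 and 2 factors, and RUVr called 2353 (15%).

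Polycomb genes, whose products place the marks that BAP1 and SWI/SNF oppose, gave no call in the edgeR quasi-likelihood test either. In repressive complex 1, 12 of 19 tested genes had a log2 fold change above 0 (median 0.08), as had 8497 of all 15728 tested genes. An unadjusted p under 0.05 was reached by 1 of the 19, on the higher side, against 10.8% of all tested genes. That gene was Cbx7, the chromodomain subunit that reads H3K27me3. Cbx7 was at 43.9, 38.5, 53.0, 51.0 and 44.3 CPM in KM and at 128.9, 74.4, 55.7, 57.1 and 94.5 CPM in KMS. Each KMS library was above each KM library, as in 1.84% of all tested genes. The log2 fold change of 0.83 did not pass adjustment (standard error 0.249, unadjusted p = 0.00606, adjusted p = 0.165, edgeR). With RUVr, which called 15% of all tested genes, Cbx7 was called (adjusted p = 0.0350). In repressive complex 2, 7 of 12 tested genes were below 0 (median -0.11), against 46% of all tested genes. Of the 12, 2 had an unadjusted p under 0.05 on the lower side, Phf19 and Lcor, against 8.62% of all tested genes. Phf19, which brings the complex to H3K36me3, was low, at 0.829 to 1.31 CPM in KM and 0.165 to 0.827 CPM in KMS, groups that just failed to overlap, as in 2.94% of all tested genes on this side (log2 fold change -1.35, adjusted p = 0.189, edgeR). Lcor was at 4.54 ± 1.87 CPM in KM against 2.48 ± 0.839 CPM in KMS (log2 fold change -0.87).

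**Figure D5:**
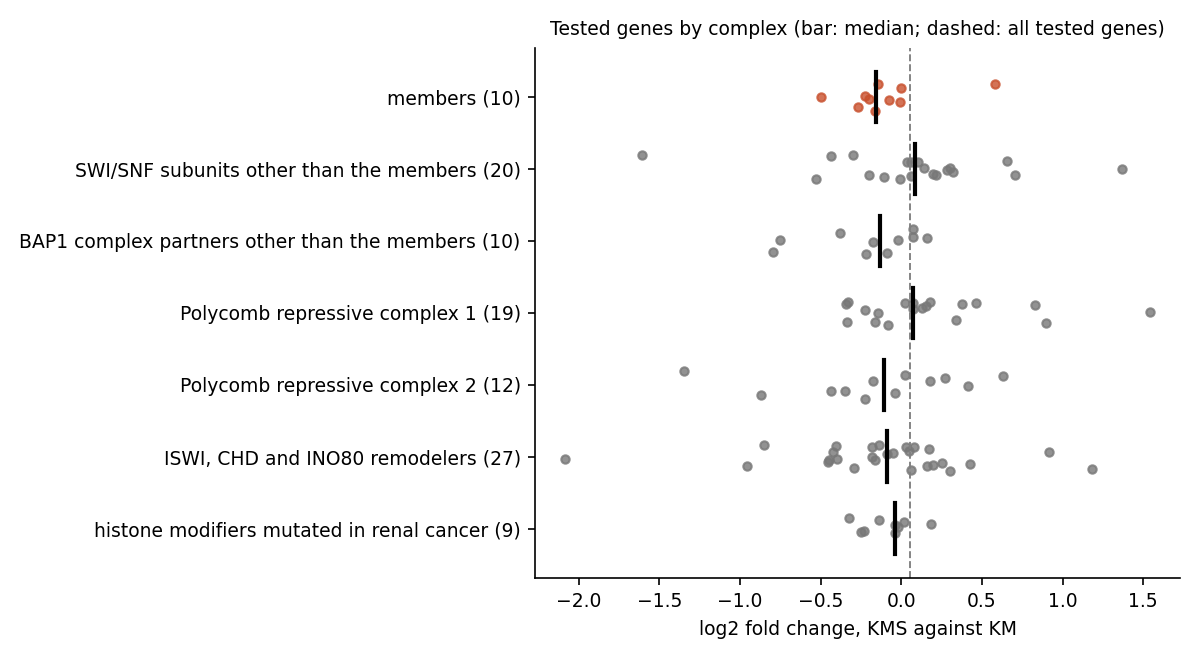
Log2 fold change of KMS against KM (horizontal axis) for each tested gene of the 10-gene set (red) and of 6 lists of related regulators (grey), with the number tested in brackets, a bar at each list's median and a dashed line at the median of all tested genes (0.06). The edgeR quasi-likelihood test called no gene shown, whereas fits with factors of unwanted variation called some of them and DESeq2 called Hells. The 10 genes had a median of -0.15, and the list medians lay between -0.13 and 0.08.

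Genes next to Pbrm1 and Bap1, named for their position but added after the values had been seen, had values of their own. Gnl3, which encodes a nucleolar GTPase of dividing cells and shares a start region with Pbrm1, was at 24.3 to 51.1 CPM in KM against 17.8 to 85.2 CPM in KMS (log2 fold change 0.36, adjusted p = 0.649, edgeR), so its fitted direction was opposite to that of Pbrm1 and within the spread. Phf7, which shares a start region with Bap1 and is known from the male germ line, was at 13.5, 12.9, 14.4, 10.3 and 9.36 CPM in KM and at 22.4, 21.9, 13.6, 17.6 and 28.8 CPM in KMS. Only KMS replicate 3 fell within the KM range, and the log2 fold change of 0.79 missed the threshold after adjustment (unadjusted p = 0.00815, adjusted p = 0.173, edgeR). Both genes of the Bap1 start region were thus higher on average in KMS at an unadjusted p under 0.05, as were 10.8% of all tested genes. Neither was called in that fit, while Phf7 was called with DESeq2 (adjusted p = 0.0494), RUVg and RUVr. Of all tested genes DESeq2 called 1072, RUVg 1000 and 1471 with 1 and 2 factors, and RUVr 2353.

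Levels of marker genes of other cells stood beside these values. All 12 markers of dividing cells had a log2 fold change below 0, with a sum of 66.7 to 179 CPM in KM and 18.4 to 73.8 CPM in KMS, and so did 9 of 9 T and NK cell markers (21.7 to 44.5 against 3.23 to 15.4 CPM), 6 of 6 B and plasma cell markers (9.97 to 90.7 against 5.47 to 14.6 CPM) and 8 of 8 fibroblast markers (274 to 609 against 150 to 224 CPM). In these 4 lists 11, 6, 5 and 5 genes in turn were lower at an unadjusted p under 0.05, against 8.62% of all tested genes. Called was 1 gene (0.102% of all tested genes), the fibroblast marker Lum, named after its value had been seen. Below 0 were also 7 of 9 macrophage and neutrophil markers (250 to 834 against 140 to 411 CPM), 6 of 7 tubule injury markers (2297 to 12306 against 1467 to 7363 CPM) and 6 of 8 collecting duct markers (413 to 1124 against 303 to 740 CPM), each list with 4 genes at an unadjusted p under 0.05 and none called. The sums of endothelial markers overlapped, at 269 to 1001 CPM in KM and 186 to 1123 CPM in KMS, with 5 of 7 below 0, and all 5 podocyte markers were above 0, with 0 of either list at an unadjusted p under 0.05. Of the thick ascending limb and distal tubule markers 5 of 7 were above 0 (1014 to 8405 against 3022 to 5229 CPM), with 1 gene on each side at an unadjusted p under 0.05. Of the proximal tubule markers 6 of 10 were above 0, with 0 at that p. The part of these cells in the levels of the 10 genes was not tested.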

How the data were processed

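Libraries of 5 KM and 5 KMS mice were assigned to groups by their labelled genotype. The methods describe a directional kit for polyadenylated RNA, alignment to GRCm38 with HISAT2 and counting with HTSeq, where the strand setting was not given in the sources read here. Deposited by the authors were raw read counts for each gene in each mouse, before any scaling. The deposited table also holds log2 fold changes and p-values of the authors' own comparison, which were not used. All 10 count columns were mapped to a library.

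Counts were tested in R 4.3.3 with edgeR 4.0.16 (TMM factors, filterByExpr, quasi-likelihood test without covariates, Benjamini-Hochberg over 15728 genes). Calls required an FDR under 0.05 and a change of more than 1.5-fold in either direction. CPM uses the TMM factors, and log2 CPM a prior count of 3. Ratios of related subunits used CPM + 0.5 and a two-sided exact permutation test. Exon lengths, from GENCODE vM21, matched 91.4% of tested genes and all 10 of the set. Promoters and positions are those of RefSeq for GRCm38.p6, and similar transcripts were sought with BLAST+ 2.17.0 (at least 90% identity over 300 bases). The fits were checked on simulated counts. KM replicates 1 and 2, far more alike than any other pair, were kept as separate mice. P-values take every library as a separate mouse, KM replicates 1 and 2 included.

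The members, the gene lists and the tests were chosen with earlier results of these data known. Genes named are the 10 members, Setd2, the second gene of each ratio, in each list of regulators the called genes or up to 2 of lowest p, and the 3 genes most like Pbrm1 and Bap1. The divergent neighbors Gnl3 and Phf7 were added after the values had been seen. Alternatives were RLE and upper-quartile factors, other filters, no fold threshold, DESeq2 1.42.0, limma-voom (limma 3.58.1) with and without quality weights, the likelihood ratio test, RUVg (controls all but the 5000 genes of lowest p) and RUVr factors computed on TMM-scaled counts without RUVSeq, a replicate block, the Y-linked level as a covariate, each library left out in turn, and, chosen after seeing the data, offsets that remove the trend with exon length. Total counts were 10873993 to 25029639, and every gene of the set had at least 54 reads per library, so counting error is small beside the spread between mice.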

Additional observations from a re-analysis of the deposited data

Results flagged for a closer look

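Among 30 groups of 5 libraries tested for a single library far from the others, 3 were picked out, where chance picks about 1 in 20 of separate groups. The groups are not separate, because the ratios reuse the levels of their genes. The first and the second result below share the Arid1b level of KMS replicate 5, so the count of 3 cannot be set against that rate. The log2 CPM of Arid1b in KMS replicate 5 was separated from the next KMS library by 0.729 of the range of the group. The log2 ratio of Arid1b to Arid1a in KMS replicate 5 was separated by 0.734 of the range, at -0.04 against -3.57 to -2.63 in the other KMS libraries. The log2 ratio of Asxl2 to Asxl1 in KM replicate 5 was separated by 0.850 of the range, at -4.04 against -2.93 to -2.73 in the other KM libraries.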

How the results depend on the processing

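Of all tested genes 16 were called (4 higher, 12 lower), against 25 (5 and 20) with upper-quartile factors, 1072 (255 and 817) with DESeq2, 33 (6 and 27) with limma-voom, 660 (209 and 451) with quality weights, 602 (131 and 471) with the likelihood ratio test, 1000 (493 and 507) and 1471 (616 and 855) with 1 and 2 RUVg factors, 2353 (1289 and 1064) with RUVr, 7 (2 and 5) with the Y-linked level and 27 (7 and 20) adjusted for exon length, and 9 to 42 with a library left out. Of the 10 genes 0 were called except with RUVr, which called 2, Bap1 (0.60) and Pbrm1 (-0.66). With 2 RUVg factors Pbrm1 (adjusted p = 0.0358) and Smarcc1 (adjusted p = 0.0347) passed the FDR but not the fold. The cause of these moves was not tested.

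Adjusted for exon length, the log2 fold change turned for Arid1a (0.0192), Arid1b (0.62), Arid2 (0.27), Smarca4 (0.0679), Smarca2 (0.66), Smarcc1 (0.0264), Asxl1 (0.0923) and Kmt2c (0.0199). With the Y-linked level it turned for Arid1b (0.0896), Smarca2 (0.58), Smarcb1 (0.0441) and Smarcc2 (-0.0718). That of Arid2 also turned without a filter (0.0061), with DESeq2 (0.0014), with quality weights (0.25) and with 1 RUVg factor (0.0272). Smarcc2 turned with upper-quartile factors (-0.0799), Kmt2c (0.0028) and Gnl3 (-0.0581) with quality weights, and Gnl3 (-0.22) with 2 RUVg factors. The log2 ratio of Arid1b to Arid1a turned with CPM + 5 (0.0856) and that of Smarca2 to Smarca4 as a difference of medians (-0.88).

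With each library left out in turn, the log2 fold change ranged from -0.66 to -0.23 for Pbrm1, 0.52 to 0.72 for Bap1, -0.54 to -0.06 for Arid1a, -0.86 to 0.12 for Arid1b, -0.30 to 0.23 for Arid2, -0.35 to -0.06 for Smarca4, -1.17 to 0.55 for Smarca2, -0.29 to 0.0769 for Smarcb1, -0.48 to -0.06 for Smarcc1 and -0.40 to 0.0054 for Asxl1. The difference in log2 ratio ranged from -0.62 to 0.49 for Smarca2 to Smarca4, -0.64 to 0.24 for Arid1b to Arid1a, 0.17 to 0.29 for Arid2 to Arid1a, 0.26 to 0.55 for Smarcc2 to Smarcc1 and -0.97 to -0.26 for Asxl2 to Asxl1.

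Deviations of libraries with the same replicate number correlated at -0.34, 0.14, -0.28, 0.12 and -0.44, so libraries of 1 number were not alike. KMS replicate 5, with its trend in exon length, was the closest match to KM replicates 1, 2 and 3. These values therefore do not settle whether the numbers pair the samples. With the replicate block 2 genes were called (0 and 2) and 0 of the 10.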

Other observations

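Remodelers outside the SWI/SNF family and histone modifiers were followed beside the 10 genes. Of 27 tested genes of the ISWI, CHD and INO80 families the edgeR quasi-likelihood test called none. A log2 fold change below 0 was found for 15 (median -0.09), against 46% of all tested genes. An unadjusted p under 0.05 was reached by 1 on the higher side (10.8% of all tested genes) and 1 on the lower (8.62%). Hells, a remodeler that supports DNA methylation and is expressed in dividing cells, was at 5.88, 5.75, 5.74, 6.53 and 18.2 CPM in KM and at 2.01, 3.40, 2.19, 2.199 and 0.0623 CPM in KMS. Each KMS library was below each KM library, as in 2.94% of all tested genes, and the log2 fold change of -2.09 did not pass adjustment (standard error 0.681, unadjusted p = 0.01003, adjusted p = 0.182, edgeR), whereas Hells was called with DESeq2 (adjusted p = 0.0280), RUVg and RUVr. The sum of 12 markers of dividing cells was lower in KMS as well (18.4 to 73.8 against 66.7 to 179 CPM), and its part in the level of Hells was not tested. Chrac1, a histone-fold subunit of an ISWI complex, was at 25.7 ± 5.88 CPM in KM against 48.5 ± 27.6 CPM in KMS (log2 fold change 0.91). KMS replicate 5 was at 95.1 CPM and the other KMS libraries at 23.9 to 49.5 CPM, and without it the log2 fold change of Chrac1 was 0.54. Chrac1 was called with RUVg and RUVr, and Baz2b, which was named after its value had been seen, with RUVr. Of all tested genes DESeq2 called 1072, RUVg 1000 and 1471 with 1 and 2 factors, and RUVr 2353.

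The 9 tested histone modifiers mutated in renal cancer included Setd2 and the H3K4 methyltransferase Kmt2c. None was called by edgeR or in any other fit, and by edgeR none had an unadjusted p under 0.05 (19.5% of all tested genes). The median log2 fold change was -0.04 with all libraries and 0.17 without KMS replicate 5. Kmt2c was at 72.2 ± 15.8 CPM in KM against 57.7 ± 27.3 CPM in KMS (log2 fold change -0.32). Cbx2, which binds H3K27me3 in repressive complex 1, was at 8.76 ± 3.12 CPM in KM against 16.3 ± 12.6 CPM in KMS (log2 fold change 0.90). KMS replicate 1 was at 37.5 CPM and the other KMS libraries at 7.03 to 17.6 CPM, and without it the log2 fold change of Cbx2 was 0.34.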
